A study of Mus musculus with 12 samples.

Results

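The cytokine and TNF-superfamily receptors are the 28 genes of the panel whose symbols mark them as an interleukin, colony-stimulating factor, interferon or TNF receptor chain. They were taken by name alone from the 754 endogenous and reference probes (symbols starting with Il and a number followed by r, Il6st, Csf and a number followed by r, Tnfrsf, Ifnar or Ifngr, with the secreted antagonist Il1rn left out). No measured value entered the choice. Receptor genes with other symbols, such as Kit or Cd40, fall outside it. Of the 28 genes, 17 exceeded background in at least 3 of the 12 libraries.

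The RNA came from bone marrow-derived mast cells (BMMCs) of 3 C57BL/6 mice, grown in IL-3 for at least 4 weeks. The study's methods describe these cultures as nearly all positive for FcεRIα and c-Kit. Cells of each mouse were electroporated with siGLO, a transfection indicator used as the control, or with siRNAs. The siRNAs were directed against Zc3h12a (si12A), against Zc3h12c (si12C) or, with both cocktails, against both (si12A+C). Each of the 4 groups thus held 3 samples. Every sample, the controls included, was electroporated and, after 48 h, received IgE together with antigen for 2 h, so resting cells were not compared. The 50 ng of RNA per sample were counted on the nCounter Myeloid Innate Immunity Panel, in which barcoded probes are counted on their transcripts without amplification.

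Zc3h12a encodes Regnase-1 and Zc3h12c encodes Regnase-3, endoribonucleases that cleave mRNAs of inflammatory genes. Interleukin and interferon receptors of the cytokine receptor families have no kinase of their own and signal through JAK kinases and STAT factors. The signalling receptors of the IL-1 family carry a TIR domain that recruits MyD88. TNF receptors recruit TRAF adaptors or, through a death domain, other adaptors. Mast cells are known for responding to IL-3, which sustains them in culture, to IL-4 and to IL-33, whose receptor ST2 they display at the surface.

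The siRNAs define the groups, so their sequences are shown first, as listed by the study, 5′ to 3′ in DNA letters. Each cocktail held 4 sequences of 19 bases.
si12A siRNA 1: gcagagatcctgtcttaca
si12A siRNA 2: gagcgaggccacacagata
si12A siRNA 3: gaaatgtacgtatggaatc
si12A siRNA 4: gaaagggctggtgtatata
si12C siRNA 1: gcccaagtctggataattt
si12C siRNA 2: gcacttaagttaggttatt
si12C siRNA 3: gcactacacctttaagcaa
si12C siRNA 4: ggatattattccatgttga
None of the receptor genes is a designed target of these siRNAs. The levels of Zc3h12a and Zc3h12c were not analysed here, so the depletion itself is given by the labels. In its own assays the study reports effective depletion of both mRNAs and proteins, and more Regnase-1 after Regnase-3 was depleted.

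Total counts ran from 447310 to 819974 per library. Background was the mean plus 2 SD of the 8 negative control probes of the same library, and this limit lay between 15.3 and 25.9 counts. Across the panel, 496 of 754 probes exceeded it in at least 3 libraries and entered the tests. All 9 mast cell markers examined were above background in all 12 libraries, among them Fcer1a, Kit and Cpa3. Of 15 macrophage and monocyte markers 5 were above background, and their list summed to 340 to 459 scaled counts in siGLO, 279 to 306 in si12A, 294 to 396 in si12C and 285 to 399 in si12A+C. The neutrophil markers Ly6g, S100a8 and S100a9 stayed at background, and 3 of 8 neutrophil, 2 of 5 eosinophil, 1 of 5 dendritic cell and 2 of 7 lymphocyte markers were above it. The libraries of mouse 2 stood apart from those of mice 1 and 3, as described with the receptors below.

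The detected receptors are given by ligand family. Among the receptors of the common beta and gamma chain families, Il3ra, the alpha chain for IL-3, and Il4ra, the alpha chain shared by the IL-4 and IL-13 receptors, were above background in all 12 libraries. Il21r, the IL-21 receptor, was above it in 3. The alpha chains for IL-5 (Il5ra), GM-CSF (Csf2ra) and IL-15 (Il15ra) were above it in 0 of 12. In these mast cells, grown in IL-3 and activated through IgE, 3 of the 6 receptors of this kind thus met the detection rule. Il21r only just met it, with the 3 libraries the rule requires.

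All 5 IL-1 family receptors on the panel were detected. Il1rl1, which encodes ST2, Il1r2, the decoy receptor that binds IL-1 without signalling, and Il18r1, the IL-18-binding chain, were above background in all 12 libraries. Il1rap, the accessory chain shared by the IL-1 and IL-33 receptors, was above it in 11, and Il1r1, the signalling IL-1 receptor, in 10. Il10ra, the ligand-binding IL-10 receptor chain, Ifnar2 and Ifngr1, chains of the type I and type II interferon receptors, and Il17ra, the chain shared by IL-17 receptors, were above it in all 12, and the second type I interferon receptor chain, Ifnar1, in 10.

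In the IL-6 and IL-12 family, Il27ra, the IL-27 receptor, was above background in 3 libraries and Il6ra, the IL-6-binding chain, in 0. The growth factor receptors of other myeloid lineages were at background: Csf1r, the CSF-1 receptor of macrophages, in all 12 libraries, and Csf3r, the G-CSF receptor of neutrophils, in all but 1 library. Of the 8 TNF receptors, Tnfrsf12a (Fn14, the receptor for TWEAK) and Tnfrsf9 (4-1BB) were above background in all 12 libraries and Tnfrsf14 (HVEM) in 11. Tnfrsf1b (TNFR2) was above it in 2. Tnfrsf1a (TNFR1, the member with a death domain), Tnfrsf4 (OX40), Tnfrsf8 (CD30) and Tnfrsf11a (RANK) were above it in 0.

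The 11 receptors called undetected had raw counts of 1 to 35. For these genes the statement is only that a transcript was not detectable at this depth. On either side of the rule, Il21r had 14 to 28 raw counts and Il27ra 12 to 26, while Tnfrsf1b had 1 to 35 and Csf3r 4 to 21, so the 4 genes overlapped in level. With a limit of 3 SD 15 receptors passed, and with the highest negative control probe as the limit 17 passed. Requiring all 12 libraries left 11.

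**Figure D1:**
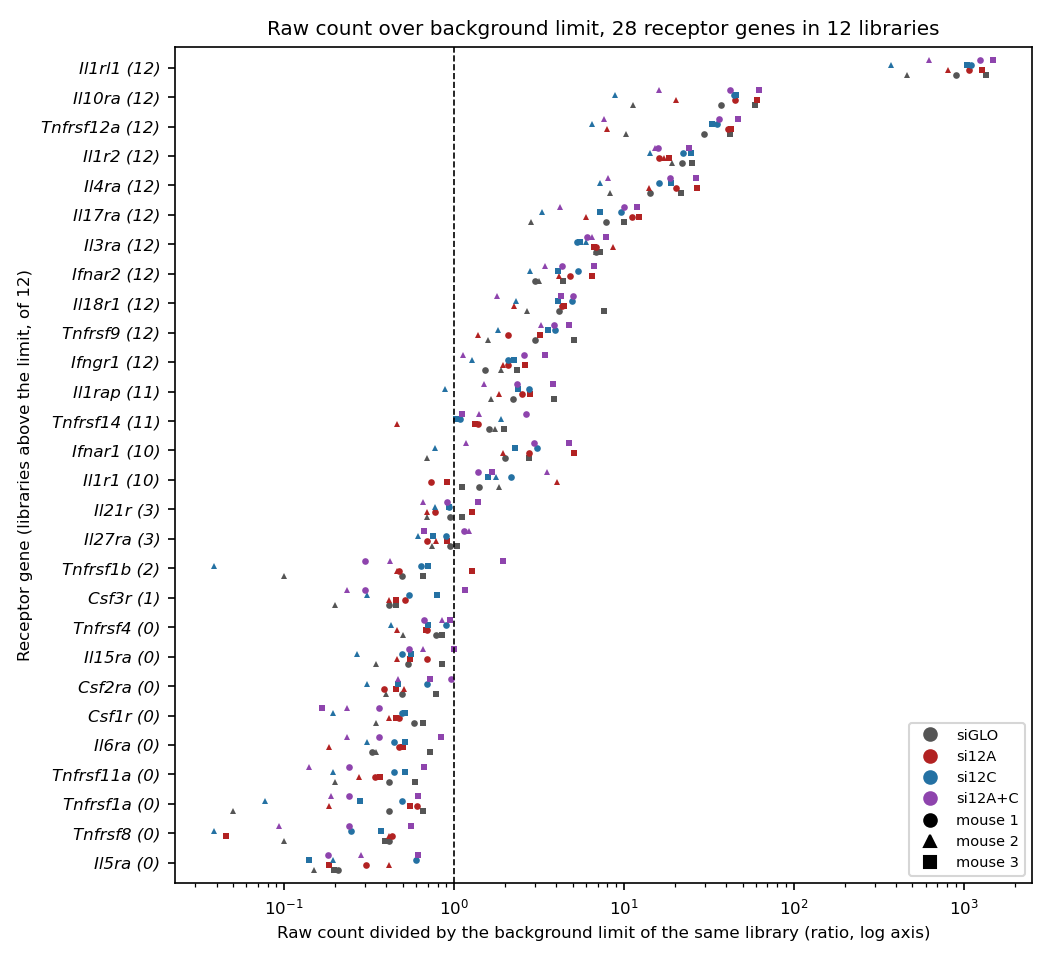
Raw count of each of the 28 receptor genes divided by the background limit of its library, on a log axis; each point is 1 library, coloured by siRNA group and shaped by mouse, and the dashed line marks the limit. The 11 genes above the limit in all 12 libraries lie wholly to the right of the line, and the 9 genes above it in 0 libraries lie wholly to the left or on it.

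Levels are given below as scaled counts, that is, counts divided by the TMM library size and brought to the mean library. They compare libraries for a gene, and not genes with each other, because probes differ in efficiency. For the 4 receptors with the highest counts the value in each sample is given. Il1rl1 had 20100, 14600 and 21900 scaled counts in siGLO (mice 1, 2 and 3), 21000, 20000 and 20600 in si12A, 19400, 13800 and 20800 in si12C, and 22000, 17300 and 21500 in si12A+C. Its group means were 18900 ± 3780 in siGLO, 20500 ± 503 in si12A, 18000 ± 3670 in si12C and 20200 ± 2540 in si12A+C (SD, n = 3). The groups overlapped, and mouse 2 gave the lowest value in each of them. The ST2 transcript did not pass the test in any comparison with TMM scaling, with or without the mouse in the model. With the block and scaling on well-detected reference genes Il1rl1 was called higher in si12A and in si12A+C against si12C, by 0.56 and 0.52 on the log2 scale (adjusted p of 0.0191 and 0.041). Its log2 fold changes against siGLO were 0.14 ± 0.11 (SE) in si12A, -0.07 ± 0.11 in si12C and 0.11 ± 0.11 in si12A+C.

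Il10ra had 828, 355 and 951 scaled counts in siGLO, 887, 503 and 980 in si12A, 784, 328 and 900 in si12C, and 742, 444 and 904 in si12A+C. Tnfrsf12a had 659, 325 and 677 in siGLO, 802, 197 and 687 in si12A, 622, 239 and 653 in si12C, and 635, 211 and 679 in si12A+C. For both genes the 4 libraries of mouse 2 lay below the other 8, whatever the siRNA, and the groups overlapped throughout. Their log2 fold changes against siGLO stayed between -0.20 and 0.20, with adjusted p of 0.281 or more.

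Among the 17 receptors above background, with TMM scaling on all 12 libraries, Il1r2 was the only one edgeR called against siGLO. In edgeR the call came only with the mouse in the model, and Il1r2 was lower after depletion of Regnase-1. On the deposited log2 table limma called Il1r2 lower with and without the mouse, as given below. It had 490, 608 and 404 scaled counts in siGLO, 314, 426 and 298 in si12A, 392, 524 and 488 in si12C, and 280, 425 and 350 in si12A+C. In the cells of each mouse the si12A and si12A+C libraries were below the siGLO library, but the groups overlapped, since the siGLO value of mouse 3 lay under the si12A value of mouse 2. The means were 501 ± 103 in siGLO, 346 ± 69.5 in si12A, 468 ± 68.1 in si12C and 351 ± 72.4 in si12A+C (SD, n = 3). In bulk RNA, fewer cells that express the decoy receptor and less of its RNA per cell cannot be told apart.

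Calls came from edgeR's quasi-likelihood test over all 496 probes and required an adjusted p of 0.05 or less together with a log2 change larger than 0.5 up or down, the fold limit of the study's methods. Without the mouse in the model no receptor was called in any of the 7 comparisons, against a background of 0% of all probes; unadjusted p below 0.05 was reached by 2, 0 and 2 of the 17 receptors in si12A, si12C and si12A+C against siGLO, and by 38, 2 and 33 of the 496 probes. DESeq2 without the mouse also called 0 receptors. Limma on the deposited log2 table called Il1r2 and other receptors without the mouse. Il1r2 changed there by -0.57 in si12A (adjusted p = 5.16e-05) and in si12A+C (4.86e-05), and was called with the mouse as well (0.000173 and 0.000196). Because the 3 mice supplied all 4 groups, the mouse was added as a replicate block. Il1r2 then fell by 0.54 on the log2 scale in si12A (SE 0.13, adjusted p = 0.0299, against 0.581 without the block) and fell by 0.51 in si12A+C (SE 0.13, adjusted p = 0.0271, against 0.743 without the block), lower in 3 of 3 mice each time. In si12C its change was -0.09 ± 0.13 (adjusted p = 0.971).

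Both changes lay just past the limit of 0.5. With the block, 1 of 17 receptors was thus called lower in si12A, beside 3.63% of all probes, and 1 of 17 in si12A+C, beside 2.62%. A single gene among 17 does not set the receptors apart from that background. No receptor was called higher, beside 1.81% of all probes in si12A and 3.43% in si12A+C, and none was called in si12C, where 0.403% of all probes were higher and 0% lower; unadjusted p below 0.05 was reached there by 0 of 17 receptors. The comparisons share the siGLO libraries, so the Il1r2 values of si12A and si12A+C are not independent of each other.

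The call depended on single libraries and on the scaling. In si12A it was lost without any 1 mouse (adjusted p = 0.0764, 0.142 and 0.0539 without mice 1, 2 and 3), without any 1 si12A library (0.0605, 0.0639 and 0.0912), without the siGLO library of mouse 1 (0.0819) or 2 (0.107), and without the si12A+C library of mouse 2 (0.0525), with log2 changes of -0.61 to -0.43 in these fits. In si12A+C it was lost without mouse 1 (0.272) or mouse 2 (0.14), without the siGLO library of mouse 1 (0.14) or 2 (0.105), and without any 1 si12A+C library (0.108, 0.113 and 0.0566), with log2 changes of -0.59 to -0.33. On all 20 reference genes the values were -0.63 in si12A (adjusted p = 0.142) and -0.35 in si12A+C (0.495), on well-detected reference genes -0.21 (0.294) and -0.20 (0.376), and on positive controls -0.93 (0.00406, a call) and -0.58 (0.104). Cx3cr1, a monocyte and macrophage receptor gene, was the only marker of another cell type called in the same 2 comparisons. Its log2 changes were -0.85 ± 0.18 in si12A (adjusted p = 0.018) and -1.06 ± 0.19 in si12A+C (adjusted p = 0.00449). With the block, the median over the 5 macrophage and monocyte markers tested was -0.437 in si12A and 0.105 in si12A+C. The part of Cx3cr1 in the Il1r2 values was not tested.

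**Figure D2:**
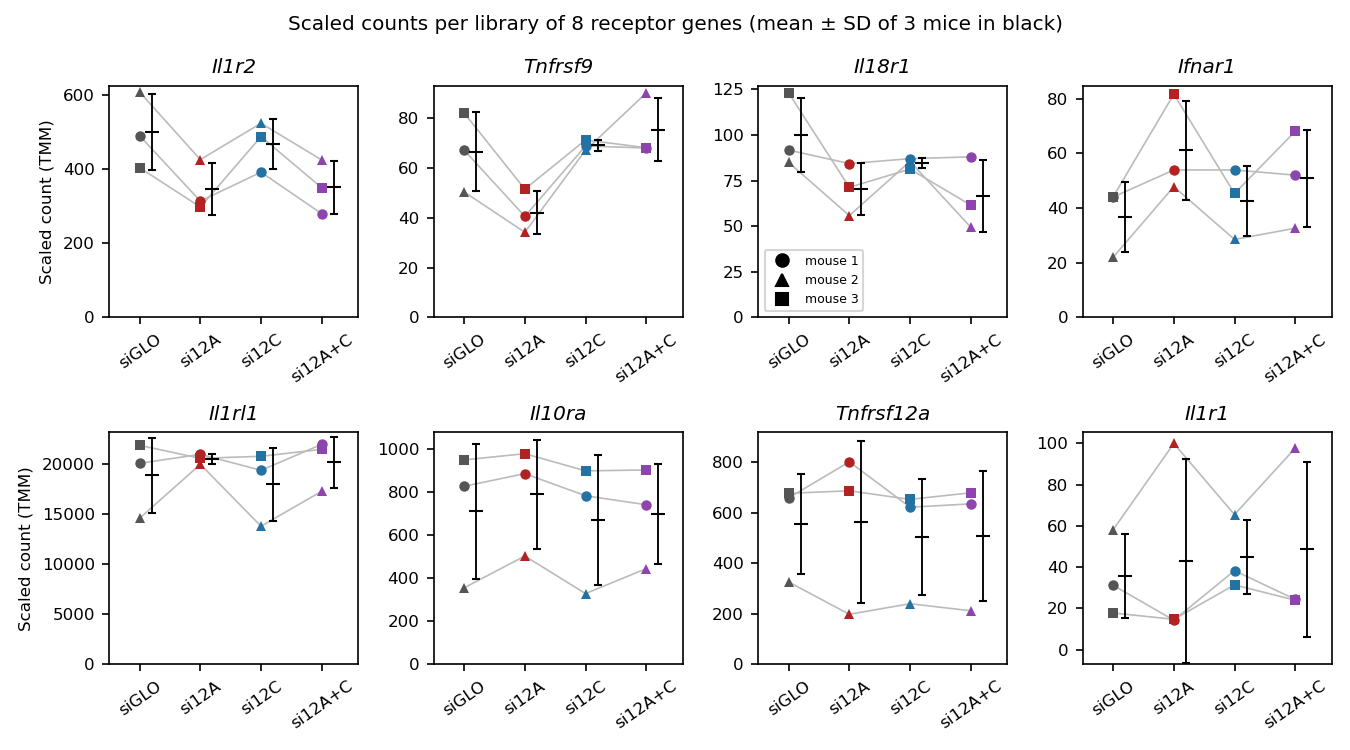
Scaled counts of 8 receptor genes in the 12 libraries, by siRNA group; points are mice (circle 1, triangle 2, square 3), grey lines join the libraries of a mouse, and black bars are the mean ± SD of 3 mice. For Il1r2 the si12A and si12A+C points of each mouse lie under its siGLO point, and for Il10ra and Tnfrsf12a the triangles of mouse 2 lie under all other points.

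The 4 genes of the IL-1 receptor family Il1r2, Il1r1, Il1rl1 and Il18r1 lie in this order in a cluster on chromosome 1, with Il1rl2, not a member here, between Il1r1 and Il1rl1. The promoters of Il1r2, the gene called, and of Il1rl1, the receptor farthest above background, are shown as RefSeq gives them for GRCm38.p6, from 250 bases before to 50 bases after the transcript start. The Il1r2 window is chr1:40085843-40086142 (+ strand), with the palindrome CACGTG in capitals. The upstream of the 2 Il1rl1 windows is chr1:40429320-40429619 (+ strand), with GATA motifs (GATA after A or T and before A or G, on either strand) in capitals.
Il1r2: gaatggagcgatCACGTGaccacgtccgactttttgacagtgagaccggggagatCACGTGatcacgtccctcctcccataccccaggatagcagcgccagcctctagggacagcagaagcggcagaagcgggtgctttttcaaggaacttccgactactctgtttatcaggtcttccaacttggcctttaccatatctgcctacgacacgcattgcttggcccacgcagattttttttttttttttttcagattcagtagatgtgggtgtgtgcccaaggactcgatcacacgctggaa
Il1rl1: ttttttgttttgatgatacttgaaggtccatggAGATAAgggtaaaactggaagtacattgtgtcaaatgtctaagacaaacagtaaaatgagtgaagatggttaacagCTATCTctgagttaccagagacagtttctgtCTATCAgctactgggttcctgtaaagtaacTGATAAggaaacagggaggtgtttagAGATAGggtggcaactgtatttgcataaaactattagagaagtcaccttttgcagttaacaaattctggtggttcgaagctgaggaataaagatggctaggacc
The Il1r2 window held CACGTG 2 times, and 7.15% of the 32851 RefSeq windows of this length held it at least once. The Il1rl1 window held 5 GATA motifs, 29.8% of all windows held at least 1, and the second Il1rl1 start, at chr1:40439379-40439678, held 1. Windows were found for 24 of the 28 receptors; 4 of these genes held CACGTG and 9 a GATA motif in a window. The motifs were chosen after these sequences were seen, and a match is a description of the letters only.

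The other IL-1 family members were not called by edgeR on all 12 libraries with TMM scaling. With limma on the deposited log2 table and the block, Il18r1 was called lower in si12A (-0.54, adjusted p = 0.000746) and in si12A+C (-0.51, 0.0011). Il18r1 had 91.7, 84.9 and 123 scaled counts in siGLO, 84.3, 55.8 and 71.3 in si12A, 87.0, 85.5 and 81.3 in si12C, and 88.0, 49.5 and 61.6 in si12A+C. Its values were below siGLO in 3 of 3 mice in si12A and in si12A+C, and the groups overlapped. The log2 changes with the block were -0.51 ± 0.19 (adjusted p = 0.104) in si12A and -0.60 ± 0.20 (adjusted p = 0.0935) in si12A+C, and the second was called without mouse 1 (-0.85, adjusted p = 0.0189), without the si12A+C library of mouse 1 (-0.81, 0.0444) or without the siGLO library of mouse 1 (-0.79, 0.047). Il1rap ranged from 32.8 to 61.9 scaled counts and its log2 changes from -0.33 to -0.23 in the 3 comparisons with siGLO (adjusted p of 0.435 or more), and those of Il1r1 ran from -0.03 to 0.41 (adjusted p of 0.735 or more).

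Tnfrsf9, Ifnar1, Il17ra and Il4ra are described next because they came closest to a call after Il1r2; they were picked out after their values were seen. Tnfrsf9 encodes the costimulatory receptor 4-1BB. It had 67.0, 50.3 and 81.9 scaled counts in siGLO, 40.5, 34.1 and 51.4 in si12A, 68.7, 67.0 and 71.1 in si12C, and 67.9, 89.9 and 68.0 in si12A+C. The si12A libraries lay under all si12C and si12A+C libraries and overlapped siGLO only by the si12A value of mouse 3 and the siGLO value of mouse 2. With the block the log2 change in si12A was -0.66 ± 0.21 (adjusted p = 0.0647, lower in 3 of 3 mice), in si12C 0.05 ± 0.20 (adjusted p = 0.988) and in si12A+C 0.16 ± 0.20 (adjusted p = 0.748). Limma on the deposited log2 table with the block called Tnfrsf9 lower in si12A, at -0.68 (adjusted p = 0.00168).

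The difference between si12A+C and si12A for Tnfrsf9 was 0.82 ± 0.21 on the log2 scale, higher in 3 of 3 mice, with an adjusted p of 0.155 that was also the smallest of all 496 probes in that comparison. The direct test of whether si12A acted differently with si12C than alone gave 0.78 ± 0.29 (adjusted p = 0.543). With an adjusted p over the threshold in both, these fits did not show a different response of Tnfrsf9 to the single and the combined depletion. Both tests called Tnfrsf9 with limma on the deposited log2 table and the block, at 0.87 (adjusted p = 0.00109) and 0.78 (0.0366). With edgeR scaled on positive controls and the block, only the first did, at 1.16 (0.031). The ligand gene Tnfsf9 averaged 50.6 ± 26.4 scaled counts in siGLO and 56.8 ± 36.4 in si12A (SD, n = 3).

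The type I interferon receptor chain Ifnar1 had 44.0, 22.0 and 44.1 scaled counts in siGLO, 53.9, 47.8 and 81.6 in si12A, 53.9, 28.5 and 45.3 in si12C, and 52.0, 32.6 and 68.0 in si12A+C. The 3 si12A libraries lay above the 3 siGLO libraries, and the other groups overlapped with siGLO. In si12A Ifnar1 was called without mouse 1 (1.03, adjusted p = 0.00961), without the si12A library of mouse 1 (0.94, 0.0327) or without the si12A+C library of mouse 1 (0.73, 0.0496). With edgeR on all libraries the log2 change was 0.73 ± 0.21 in si12A (adjusted p = 0.0543), 0.22 ± 0.22 in si12C (adjusted p = 0.971) and 0.46 ± 0.21 in si12A+C (adjusted p = 0.242). Limma on the deposited log2 table, with the block and all libraries, called Ifnar1 higher in si12A, at 0.72 (adjusted p = 0.00081). Its siGLO and si12C libraries of mouse 2 were at background. The partner chain Ifnar2 ranged from 67.0 to 105 scaled counts, with a log2 change of 0.37 ± 0.16 in si12A (adjusted p = 0.141).

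Il17ra averaged 142 ± 45.3 scaled counts in siGLO and 188 ± 35.9 in si12A, with a log2 change of 0.42 ± 0.13 (adjusted p = 0.0633). Il4ra averaged 308 ± 43.7 in siGLO and 392 ± 45.6 in si12A, with a log2 change of 0.35 ± 0.12 (adjusted p = 0.0676). Each was higher in the si12A library of 3 of 3 mice and stayed under the fold limit. In si12A+C their log2 changes were 0.14 ± 0.13 and 0.01 ± 0.12 (adjusted p of 0.659 and 0.981). When the libraries were scaled on the positive controls, the sign of Il4ra in si12A turned, to -0.04 with the block.

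The remaining receptors above background were not called against siGLO in the fits on all 12 libraries with TMM scaling. Il3ra, the receptor for the cytokine in which the cells grew, averaged 161 ± 50.6 scaled counts in siGLO, 152 ± 55.3 in si12A, 141 ± 69.6 in si12C and 134 ± 41.2 in si12A+C (SD, n = 3), with log2 changes of -0.10 ± 0.15, -0.24 ± 0.15 and -0.27 ± 0.15 (adjusted p of 0.676, 0.937 and 0.383). Ifngr1, the ligand-binding chain for interferon gamma, had log2 changes between -0.01 and 0.02 with standard errors of 0.24. Tnfrsf14 ranged widely, from 11.4 to 69.8 scaled counts, and its log2 change in si12A was -0.90 ± 0.45 (adjusted p = 0.195, lower in 3 of 3 mice); without mouse 1 it was called there, at -1.17 (adjusted p = 0.0283). Il21r and Il27ra, both near background, ran from 15.2 to 28.5 and from 9.6 to 33.9 scaled counts.

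Over the 17 receptors tested, 7 had a log2 change above 0 and 10 below 0 in si12A, 6 and 11 in si12C, and 9 and 8 in si12A+C. The median log2 change was -0.09 in si12A, -0.07 in si12C and 0.01 in si12A+C, beside 0.01, -0.01 and 0.01 over all 496 probes. With the block, unadjusted p below 0.05 was reached by 7 receptors in si12A (4 higher, 3 lower), by 0 in si12C and by 3 in si12A+C (1 higher, 2 lower), against 147, 30 and 102 of all probes.

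**Figure D3:**
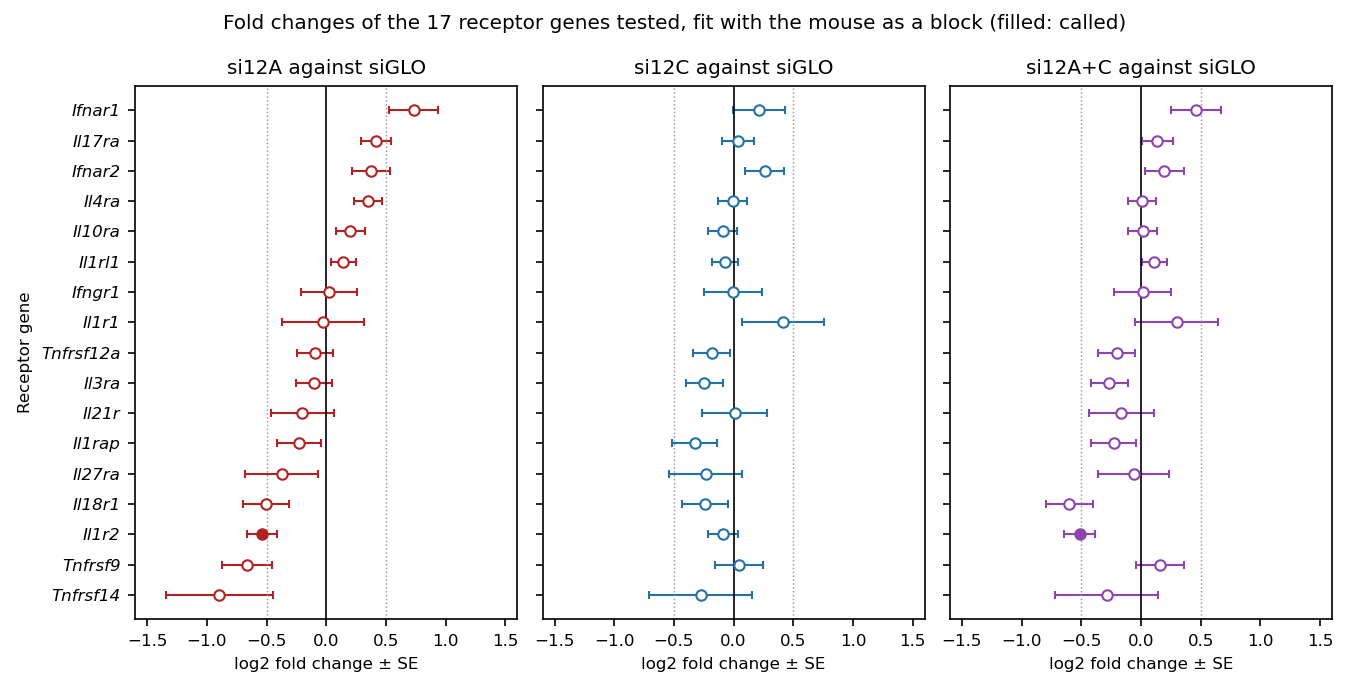
Log2 fold change ± SE against siGLO of the 17 receptor genes tested, from the fit with the mouse as a block, in si12A (left), si12C (middle) and si12A+C (right); dotted lines mark the fold limit of 0.5 and filled points the genes called. Il1r2 is filled in the left and right panels and no point is filled in the middle panel.

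Between the depleted groups no receptor was called. For si12A+C against si12A, 0% of all probes were called in either direction with the block, and 3 of 17 receptors (Tnfrsf9 higher, Il4ra and Il17ra lower) and 70 of 496 probes had an unadjusted p below 0.05. For si12A+C against si12C, 1.21% of all probes were called higher and 1.81% lower; of the receptors only Il1r2 had an unadjusted p below 0.05, with a log2 difference of -0.42 ± 0.13 (adjusted p = 0.0872). For si12A against si12C, 2.42% of all probes were called higher and 2.42% lower, and 6 receptors had an unadjusted p below 0.05. These were Tnfrsf9 with -0.71 ± 0.21 and Il1r2 with -0.45 ± 0.13 (adjusted p = 0.056 for each), Il4ra, Il17ra, Ifnar1 and Il10ra, the last 4 higher in si12A. The test of whether the depletions add up on the log2 scale called 0% of all probes and 0 receptors, and an unadjusted p below 0.05 was reached by 40 probes, of which Tnfrsf9 was the only receptor. In these 4 comparisons DESeq2 with the block called 0 receptors.

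The test between mice had no fold limit, unlike the calls between the siRNAs. On the adjusted p alone, more receptors passed between the mice than between the siRNAs, where only Il1r2 did with the block. In the model with group and mouse, 10 of 17 receptors differed between mice (edgeR, adjusted p at most 0.05), close to the background of 57.7% of all 496 probes. In all 10, mouse 2 differed in the same direction from mouse 1 and from mouse 3. Tnfrsf12a averaged 680 ± 83.1 scaled counts in mouse 1, 243 ± 57.6 in mouse 2 and 674 ± 14.6 in mouse 3 (SD over 4 siRNA groups), with mouse 2 lower than mouse 1 by a log2 difference of -1.50 (adjusted p = 1.91e-06). Il10ra averaged 810 ± 62.1, 408 ± 80.8 and 934 ± 38.8, with a difference of -0.998 (adjusted p = 2.03e-06).

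In the other direction, Il1r1 averaged 27.0 ± 10.2 scaled counts in mouse 1, 80.4 ± 21.6 in mouse 2 and 22.0 ± 7.37 in mouse 3, a log2 difference of 1.61 between mice 2 and 1 (adjusted p = 0.000159). Il3ra averaged 121 ± 26.1, 208 ± 18.0 and 111 ± 3.42, a difference of 0.79 (adjusted p = 0.000123). For Tnfrsf12a, Il10ra, Il1r1 and Il3ra the 4 libraries of mouse 2 lay outside the range of the other 8, as they did for 27.6% of all probes. Il27ra and Il1r2 were also higher in mouse 2, with log2 differences of 0.51 and 0.44 from mouse 1 (adjusted p of 0.0452 and 0.00872). Il17ra, Ifnar1, Il1rl1 and Il4ra were lower in mouse 2, by -0.63, -0.66, -0.34 and -0.27.

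Some markers of the cultures moved with the mouse as well. In the mean over the 4 groups, Cpa3, a mast cell protease gene, had 114000 scaled counts in mouse 2 and 77900 and 80400 in mice 1 and 3, and Kit had 445 against 801 and 679. Gata1, a mast cell transcription factor gene, had 65.4 against 145 and 151. Other mast cell markers differed less, such as Cma1 with 37200 against 37400 and 39400 and Gata2 with 1280 against 1440 and 1380. The mast cell list summed to 183000 to 210000 in mouse 2, 131000 to 175000 in mouse 1 and 155000 to 170000 in mouse 3. Among the macrophage markers Adgre1 had 62.4 against 24.9 and 23.3 and Cd68 had 51.2 against 68.3 and 72.1, so they went in opposite directions, and the macrophage list summed to 306 to 459 in mouse 2, 279 to 340 in mouse 1 and 279 to 375 in mouse 3. The libraries of mouse 2 also had lower TMM factors, 0.8186 to 0.9465 against 1.032 to 1.116 in mice 1 and 3. Their total counts, 447310 to 722486, overlapped those of mice 1 and 3, 564315 to 819974. The part of these differences in the receptor values was not tested, and a mouse, its culture and its libraries cannot be told apart.

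**Figure D4:**
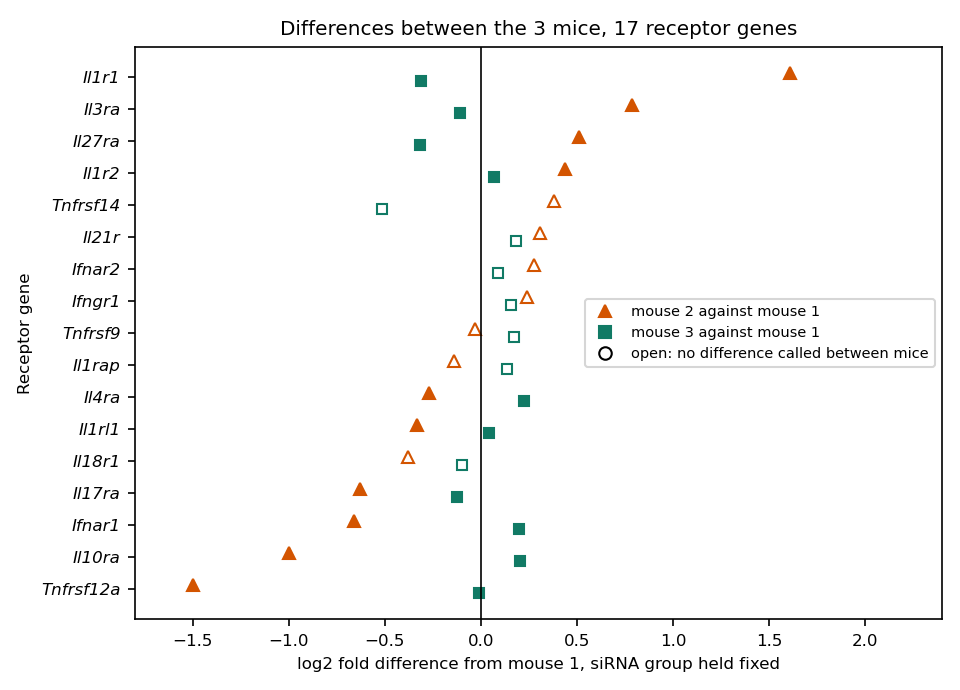
Log2 difference of mouse 2 (triangles) and mouse 3 (squares) from mouse 1 for the 17 receptor genes tested, with the siRNA group held fixed; filled symbols mark the 10 genes that differed between mice. The triangles run from -1.50 for Tnfrsf12a to 1.61 for Il1r1, while the squares stay between -0.52 and 0.22.

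The ligands and signalling genes of these receptors, were taken from lists and described by their counts, beside the percentages of all probes called given above. Of 24 ligand genes 17 were tested. With the block Tnf, the ligand of TNFR1 and TNFR2, rose in all 3 depleted groups, by a log2 change of 0.73 ± 0.15 in si12A (adjusted p = 0.0157), 0.79 ± 0.15 in si12C (adjusted p = 0.0459) and 1.03 ± 0.15 in si12A+C (adjusted p = 0.00246), while both of its receptors were at background in at least 10 libraries. The IL-1 genes Il1a and Il1b, whose products the Il1r2 decoy binds, rose in si12A+C by 0.90 ± 0.20 (adjusted p = 0.0171) and 0.80 ± 0.18 (adjusted p = 0.0195). The median log2 change of the ligands was 0.22 in si12A, 0.15 in si12C and 0.11 in si12A+C.

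Of 10 JAK, STAT and SOCS genes, all tested, Stat5a, a factor activated by IL-3, rose by 0.78 ± 0.14 in si12A (adjusted p = 0.00814) and 1.12 ± 0.14 in si12A+C (adjusted p = 0.000753). Stat6, activated by IL-4, rose by 0.54 ± 0.11 (adjusted p = 0.0126) and 0.56 ± 0.11 (adjusted p = 0.00814). The list's median log2 change was 0.49 in si12A, 0.11 in si12C and 0.25 in si12A+C. Of 19 TRAF, adaptor and NF-kB genes none was called in si12A or si12C, and 3 rose in si12A+C: Nfkbiz, an inducible NF-kB cofactor, by 1.23 ± 0.19, Traf1, an adaptor of TNF receptors, by 0.77 ± 0.19, and Map3k14, the kinase of the alternative NF-kB pathway, by 0.76 ± 0.20 (adjusted p of 0.00303, 0.0262 and 0.0354). Cd40 and Fas, TNF receptor genes under other symbols, were tested and not called, and Cd27 was not above background. Without the block 0 genes of these lists were called.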

How the data were processed

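The authors deposited raw nCounter counts for 734 endogenous, 20 reference, 8 negative and 6 positive control probes in 12 libraries, with no scaling seen in the values, and a table of log2 values for 325 probes, 13 of them receptors (column medians 8.41 to 8.62), used only as an alternative. The methods name nSolver and Omics Playground. Probes above the negative control mean plus 2 SD of their library in at least 3 libraries (496) were tested with edgeR 4.0.16 (R 4.3.3; TMM, quasi-likelihood F test, 1 coefficient per group over all 12 libraries) and Benjamini-Hochberg adjustment within each comparison. Adding the mouse as a replicate block was the second fit. The mouse numbers pair the samples: the design gives 3 mice, and the deviations of the 18 same-mouse pairs from their group means correlated at 0.137 to 0.859, those of 36 different-mouse pairs at -0.745 to 0.63. The sources used here do not say whether a single culture of each mouse supplied all 4 groups, and the p-values measure the spread between these samples of 3 mice. No 2 replicates of a group were alike within counting noise. Other alternatives were DESeq2 1.42.0, limma 3.58.1 on the log2 table, scaling on 20 or on 6 well-detected reference genes (over 100 counts) or on positive controls, other filters, subtraction of the negative control mean, and leaving out each mouse or library. The edgeR step was tested on simulated counts. Receptors were called by name. Values per sample are given for receptors above background called on all 12 libraries with TMM scaling, with or without the block. They are also given for those with a group mean of at least 500 scaled counts. Il18r1, Tnfrsf9 and Ifnar1 were added after their values were seen. The receptors, gene lists and markers were chosen with earlier results of these data known. Sequences came from RefSeq (GRCm38.p6) and the study's reagent list.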

Additional observations from a re-analysis of the deposited data

How the results depend on the processing

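Of the counts of receptors recomputed under alternatives, 608 stayed within 1.5 times of the value given first, which is mostly 0, and 58 did not. The replicate block gave 1 receptor lower in si12A and 1 in si12A+C against siGLO, both Il1r2, where the fit without it gave 0. With the block and DESeq2, a stricter filter or the negative control mean subtracted the count was again 1 in each. With no filter it was 0 in si12A and 1 in si12A+C. Il1r2 was called in neither by edgeR then, at -0.49 and -0.5 (adjusted p of 0.0366 and 0.0307). The receptor counted in si12A+C was thus another gene, 1 of the 11 receptors not above background. With the stricter filter 1 receptor was also lower in si12A against si12C. The deposited log2 table, with or without the block, gave 1 higher (Ifnar1) and 3 lower (Il1r2, Il18r1, Tnfrsf9) in si12A. In si12A+C it gave 2 lower (Il1r2, Il18r1). Between the depleted groups it gave 1 higher in si12A+C against si12A, and 1 higher and 1 lower in si12A against si12C. The test of additivity gave 1, Tnfrsf9, on that table (the cause of these calls was not tested). Leaving out a mouse or a library with the block gave 0 to 1 higher and 0 to 1 lower in si12A, 0 to 1 lower in si12A+C, and 0 to 1 higher and 0 to 2 lower in si12A against si12C; without the block every such count was 0.

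The scaling moved all genes. With the block, the median log2 change of all probes in si12A shifted by 0.32 when scaled on 6 well-detected reference genes, by -0.39 on positive controls and by -0.11 on all 20 reference genes. The calls followed: on well-detected reference genes 5 receptors were called higher in si12A (Ifnar1, Ifnar2, Il10ra, Il17ra, Il4ra) with 120 probes higher and 5 lower among all probes, 2 in si12A+C, 1 in si12A+C against si12C and 5 in si12A against si12C. On positive controls 3 were lower in si12A (Il1r2, Il18r1, Tnfrsf9) with 0 probes higher and 95 lower among all probes, 1 was higher in si12A+C against si12A and 2 lower in si12A against si12C. Il1r2 itself changed by -0.21, -0.93 and -0.63 in si12A under these scalings, and relative to the median of all probes by -0.54, -0.55 and -0.54. Il4ra in si12A turned to -0.03 without and -0.04 with the block on positive controls.

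Requiring all 12 libraries left 11 receptors above background. The receptors that differed between mice numbered 6 with all 20 reference genes as the scale, against 10. Counts near the background limit restrict what can be said of Il21r, Il27ra and the 11 undetected receptors to a bound, and 3 mice limit every test.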
